A study of Homo sapiens with 3 samples.

Results

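The genes of potassium channels and their auxiliary subunits carry symbols that start with KCN, and 96 of the 20037 protein-coding genes that RefSeq places on the main chromosomes of GRCh38 have such a symbol. They were chosen by symbol alone, with no measured value, and lie on 22 different chromosomes. The fourth letter of the symbol divides them into 19 subfamilies, which were also grouped by what the proteins do. Accessible chromatin was mapped by ATAC-seq, in which the Tn5 transposase cuts and tags DNA that is not packed away, in neurons made from KOLF2.1J, a human induced pluripotent stem cell line, with the transcription factor NGN2. All 3 samples are biological replicates of this line at day 14 of differentiation and form 1 group, so there is no other genotype, treatment or time to compare. The authors deposited 1 peak list for the 3 samples combined. The values below therefore carry no spread between replicates, and no test between samples could be made.

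Potassium channels let potassium leave the cell and so pull the membrane back towards rest. In neurons, voltage-gated channels end the action potential and set firing rate, calcium-activated channels produce the pause after a spike, and inward rectifier and tandem-pore channels hold the resting potential. Auxiliary subunits do not form the pore but change how the pore opens, closes or reaches the membrane.

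The list held 145092 entries, each with a summit (the position of the highest signal), in 65234 distinct intervals. A gene was called accessible when a summit lay within 1 kb of an outer end, that is, its first or last annotated base. Strength is given as the authors' own fold enrichment of the summit over its local background, a linear ratio, and as the number of sequenced tags under the summit, recovered from that ratio and the deposited p-value. Entries held a median of 189 tags and at least 58. The labelled cell type was checked against markers. Of 12 neuronal markers, 10 were accessible, among them MAP2, TUBB3 and SYT1, and the other two, RBFOX3 and ELAVL4, had a summit at a listed start inside the gene. Among 6 pluripotency markers DNMT3B alone was accessible at an outer end, and LIN28B and DPPA4 had a summit at a listed start inside the gene. POU5F1, NANOG and ZFP42 had neither. All 6 markers of neural progenitors were accessible, as were 5 of 8 glial and 2 of 6 muscle and heart markers. By the same rule 68.8% of all protein-coding genes were accessible, so these counts alone do not set the cell type. The TUBB3 end was weak, at 1.71-fold (475 tags). The part that cells other than neurons have in the values below was not tested.

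Accessible ends were found at 58 of the 96 KCN genes, 60.4% with a 95% Wilson interval of 50.4% to 69.6%, and at 68.8% of all protein-coding genes. The KCN share was thus lower by several percentage points, with the share of all genes inside its interval. The order depended on neighbours. Among genes with no end of another gene within 1 kb, a comparison added after the data were seen, 42 of 68 KCN genes (61.8%) were accessible, against 58.5% of all such genes. Of the 58 accessible KCN genes, 14 (24.1%) had an end of another gene within 1 kb of the accessible end, against 44.2% of all accessible genes. The neighbour was protein-coding at 5 of the 14, NPHP4 at KCNAB2, MTA3 at KCNG3, EHBP1L1 at KCNK7, SOHLH1 at KCNT1 and an uncharacterised locus at KCNK13. At these ends the list cannot assign the signal to either gene. Both ends were accessible at 6 KCN genes (KCNA2, KCNA3, KCNA5, KCND3, KCNG1 and KCNJ11), in 6.7% of all genes.

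Subunit role divided the family more clearly than membership did. Genes of voltage-gated pores were accessible in 24 of 30 cases (80.0%, Wilson interval 62.7% to 90.5%), and all other KCN genes in 34 of 66 (51.5%, 39.7% to 63.2%). Inward rectifiers followed with 10 of 16 (62.5%), pores gated by calcium, sodium or pH with 5 of 8 (62.5%), modifier alpha subunits with 6 of 10 (60.0%) and tandem-pore channels with 8 of 15 (53.3%). Auxiliary subunits were lowest, with 5 of 16 (31.2%). The intervals of most of these classes overlap, since the classes are small. Voltage-gated genes are also longer, with a median of 52.5 kb against 29.5 kb for all other KCN genes. Counting any start listed in the RefSeq promoter table instead of outer ends, the voltage-gated share was 15 of 20 and that of auxiliary subunits 7 of 13, against 72.4% of all genes with a listed start. By that count the voltage-gated share was close to that of all genes.

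**Figure D1:**
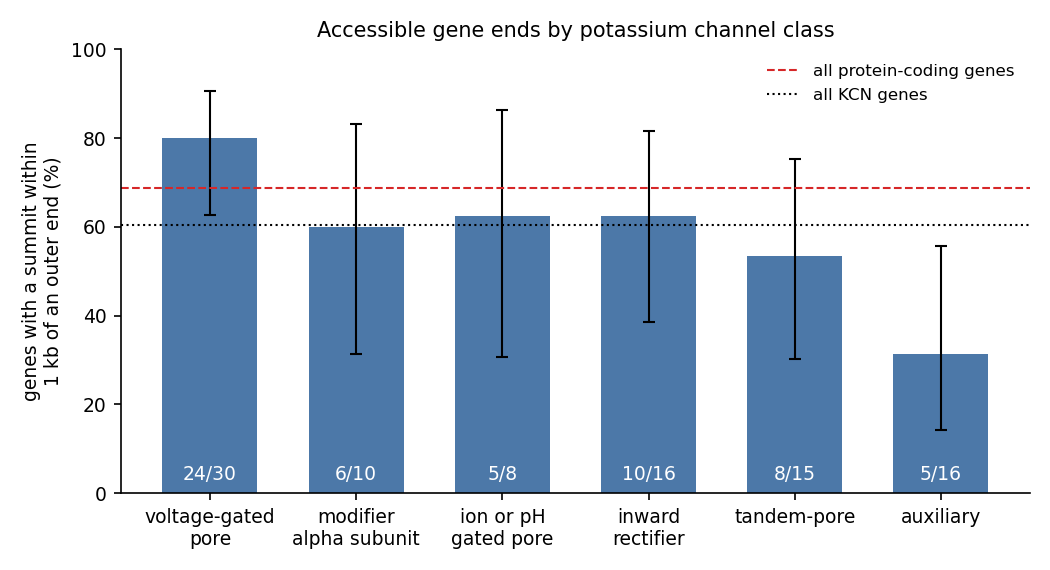
Percent of genes in each role class with a summit within 1 kb of an outer end, with 95% Wilson intervals and the counts of genes; the dashed line is the share of all protein-coding genes and the dotted line that of all KCN genes. Voltage-gated pores sit highest at 80.0% and auxiliary subunits lowest at 31.2%.

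A list of channels best known from neurons, drawn up with earlier results of these data known, had 21 of 24 accessible, the exceptions being KCNK2, KCNK9 and KCNAB1. A list drawn up as channels known mainly from kidney, heart, testis, muscle and other tissues had 1 of 10 accessible, KCNA5. The others were KCNJ1, KCNJ15, KCNJ16, KCNE1, KCNE2, KCNK18, KCNU1, KCNMB1 and KCNA7, of which KCNK18 is also known from sensory neurons. Beside the 68.8% of all genes, the first list lies above and the second below. Both lists were picked by hand and leave out accessible and inaccessible members, such as KCNJ2 and KCNJ13, so the contrast depends on the choice. They also differ in length. Genes of 300 kb or more are on the first list alone, and 85% of all genes of that length were accessible, against 51.7% of those under 10 kb.

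Accessible and inaccessible members also differed in the sequence at their start. RefSeq promoters (GRCh38.p14; 250 bases before to 50 after each listed start) matched 72 of the 96 members by symbol, and the outermost start of each was used. The 39 members with a summit within 1 kb of that start held a median of 32 CG dinucleotides in the 300 bases, and the 33 without held 7. Over all genes the medians were 27 and 5. For illustration, the 250 bases before the start are shown for 4 genes, all transcribed from the minus strand, written 5′ to 3′ with each CG in capitals. KCNT2 (chr1:196608441-196608690) had the strongest accessible end of the family, and KCNMA1 (chr10:77637809-77638058) the most CG. KCNA7 (chr19:49072700-49072949) had the most CG among members with no summit near the start, and KCNJ13 (chr2:232776566-232776815) lay farthest from any summit.
KCNT2: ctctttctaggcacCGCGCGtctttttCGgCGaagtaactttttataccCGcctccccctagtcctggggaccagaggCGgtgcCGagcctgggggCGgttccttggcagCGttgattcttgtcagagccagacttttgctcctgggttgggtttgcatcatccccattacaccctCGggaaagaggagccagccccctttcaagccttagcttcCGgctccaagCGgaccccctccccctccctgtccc
KCNMA1: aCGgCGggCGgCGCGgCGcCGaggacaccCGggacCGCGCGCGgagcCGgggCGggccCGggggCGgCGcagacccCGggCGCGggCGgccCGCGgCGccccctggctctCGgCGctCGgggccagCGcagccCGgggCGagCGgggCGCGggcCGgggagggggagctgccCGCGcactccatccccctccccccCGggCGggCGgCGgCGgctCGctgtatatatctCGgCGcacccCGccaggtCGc
KCNA7: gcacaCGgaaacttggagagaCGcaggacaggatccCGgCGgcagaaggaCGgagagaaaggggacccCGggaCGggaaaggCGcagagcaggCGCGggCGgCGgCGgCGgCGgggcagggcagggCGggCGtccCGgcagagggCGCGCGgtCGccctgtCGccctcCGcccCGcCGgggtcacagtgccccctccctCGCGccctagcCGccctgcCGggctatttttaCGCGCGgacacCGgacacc
KCNJ13: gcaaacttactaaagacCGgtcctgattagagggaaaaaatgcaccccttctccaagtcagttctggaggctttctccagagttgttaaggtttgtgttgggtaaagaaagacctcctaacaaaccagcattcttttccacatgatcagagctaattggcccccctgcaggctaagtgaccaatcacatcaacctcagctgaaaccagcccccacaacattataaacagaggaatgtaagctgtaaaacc
These stretches hold 13, 46, 34 and 1 CG respectively. The strongest end of the family therefore belonged to a gene of moderate CG content, and a stretch with 34 CG lay before a gene with no summit near its start.

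In members with 30 or more CG in the 300 bases, 22 of 25 starts were accessible (88.0%; all genes 94.1%). The exceptions were KCNA7, a muscle voltage-gated channel with 45 CG, KCNH6 with 33 and KCNN1 with 32. With 20 to 29 CG, 7 of 10 were accessible (all genes 91.5%), and with 10 to 19, 6 of 12 (all genes 72.9%). With 5 to 9 CG the count was 2 of 15 (all genes 34.6%), and with 0 to 4 it was 2 of 10 (all genes 13.3%). In every class but the lowest, the KCN share lay below that of all genes. The lowest class held the accessible starts of KCNA2, an axonal delayed rectifier, and of KCNC2, a fast channel of rapidly firing neurons, each with 4 CG.

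**Figure D2:**
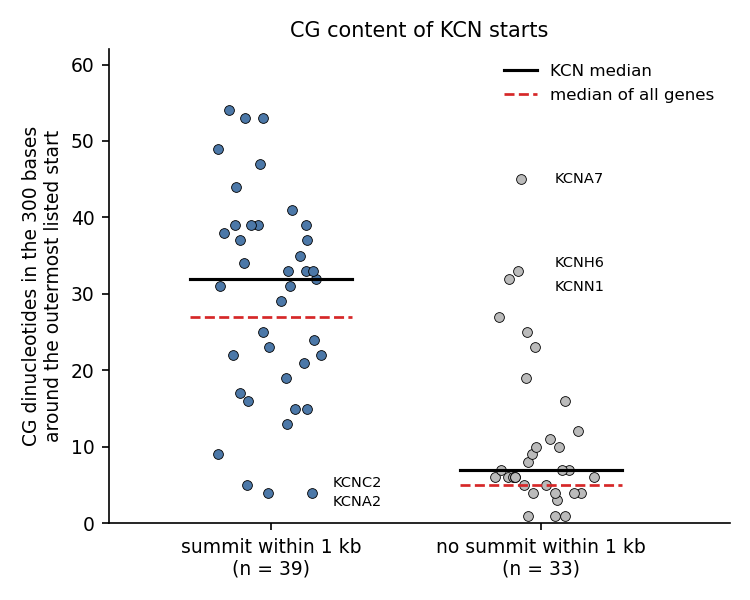
Number of CG dinucleotides in the 300 bases around the outermost listed start of 72 KCN genes, each point a gene, split by whether a summit lay within 1 kb of that start. The KCN medians are 32 and 7, the medians of all genes 27 and 5.

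Of 9 short words searched on both strands of the 300 bases, GGGCGG, the core of a GC box, was in 29 of 39 accessible KCN starts (74.4%) and in 15 of 33 others (45.5%). Over all genes it was in 71.6% and 27.2%. The E-box CAGATG was in 3 of 39 and 10 of 33, against 8.61% and 18.9% of all genes, and the E-box CAGCTG in 8 and 9, against 16.4% and 20.3%. The TATA word TATAAA was in 2 and 5 members (5.13% and 15.2%), KCNT2 among the accessible 2, against 5.62% and 19.4% of all genes. KCNF1 alone held TGACGTCA (2.56% of all promoters), and KCNJ15 and KCNJ16 held TGACTCA (3.62% of all). TTCAGCACC, a stretch of the REST motif, was in KCNH6 and KCNK3, 2.78% of the 72 members against 0.391% of all promoters. The other two, a word for the factor NRF1 and another stretch of the REST motif, were in no member, and in 1.77% and 0.372% of all promoters. Their absence says only that these letters are not in this window. These letters overlap with CG content and are given as a description.

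Voltage-gated pores. The KCNA genes encode Kv1 channels of axons and terminals, and 6 of 8 were accessible (KCNA without the KCNAB genes; 7 of 11 by the fourth letter). Their ends were close in fold but not in tags, with KCNA4 at 8.47-fold (497 tags), KCNA1 at 8.34 (531 tags), KCNA6 at 8.02 (529 tags), KCNA2 at 7.52 (297 tags) and KCNA3 at 7.46 (752 tags). KCNA5, known from heart, was weaker at 4.53-fold (227 tags). KCNA7 and KCNA10 had no summit nearer than 11175 bp and 5225 bp. KCNB2, a slow delayed rectifier, stood at 6.71-fold (663 tags).

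The fast Kv3 channels named here had accessible ends of low fold, below the median of 10.4 over all accessible genes. KCNC2 stood at 6.26-fold (307 tags), KCNC1 at 4.89 (667 tags) and KCNC4 at 4.58 (472 tags). KCNC1 thus had more tags than KCNC2 and a lower fold, since the fold is relative to the surrounding signal. Of the KCND genes, the A-type channels of dendrites, KCND2 (5.27-fold, 379 tags) and KCND3 were accessible, and KCND1 was 2918 bp from a summit. The KCND3 end of highest fold (4.20-fold, 126 tags) was its far end, with LINC01750 beside it, while its start had a lower fold and more tags (3.25-fold, 290 tags).

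Of the 8 KCNH genes, which encode the EAG, ERG and ELK channels, 6 were accessible. KCNH1 (12.0-fold, 1074 tags) and KCNH5 (10.2-fold, 1073 tags), both EAG channels, were the strongest. KCNH2 followed at 5.93-fold with 1005 tags, KCNH7 at 5.68 with 484, KCNH3 at 4.35 with 278 and KCNH8 at 2.90 with 386. The low value of KCNH8 depends on the limit of 1 kb, since a stronger summit (7.60-fold, 1019 tags) lay 1.47 kb before its start. KCNH6 and KCNH4 lay just outside the limit, 1301 and 1346 bp from a summit, but in both this was the far end. The nearest summits to their start ends were 14897 and 3117 bp away. Among the KCNQ genes, KCNQ3, a subunit of the M-current that restrains repeated firing, stood at 6.55-fold (502 tags), and KCNQ5 at 5.41 (504 tags). KCNQ1, the cardiac member, missed the limit at 1170 bp from one end, with 7554 bp to the nearest summit at the other.

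Modifier alpha subunits. These proteins open no channel alone but join pore-forming Kv subunits and alter them. Accessible were KCNG3 (8.04-fold, 843 tags), KCNS3 (7.84-fold, 677 tags), KCNG1 (7.73-fold, 504 tags), KCNS2 (6.85-fold, 530 tags), KCNF1 (6.43-fold, 458 tags) and KCNG2 (3.76-fold, 177 tags). KCNG4, KCNS1, KCNV1 and KCNV2 were not. The nearest summits to KCNG4 and KCNS1 lay 26566 and 37643 bp away. KCNV1 and KCNV2 had a summit at 1280 and 1773 bp, that of KCNV2 at its far end. With a limit of 2 kb the class therefore reached 80.0%, above the 72.4% of all genes.

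Pores gated by calcium, sodium or pH. KCNT2, a sodium-activated channel at chr1:196225779-196608440, had the highest fold and tag count of all KCN ends, 12.7-fold with 2012 tags. Its relative KCNT1 stood at 5.62-fold (337 tags). Among small-conductance calcium-activated channels, KCNN3 stood at 12.0-fold (1428 tags) and KCNN2 at 9.44 (717 tags). KCNN1 was accessible only at a start inside the gene, and KCNN4, known from red and immune cells, was 4277 bp from a summit. KCNMA1, the large-conductance calcium-activated channel, stood at 5.14-fold (357 tags) despite its 54 CG. KCNU1, the sperm channel, was 12674 bp from the nearest summit.

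Inward rectifiers. KCNJ2, a strong rectifier at chr17:70169532-70180044, stood at 12.1-fold (1386 tags), and KCNJ10, best known from astrocytes, at 11.1-fold (894 tags). The genes of channels opened by G proteins were all accessible, KCNJ6 at 9.58-fold (726 tags), KCNJ9 at 6.50 (527 tags), KCNJ3 at 5.64 (366 tags) and KCNJ5 at 4.65 (257 tags). The KCNJ3 summit lay 956 bp from the end, close to the limit. The strongest summit of the same interval lay outside the limit, 1.19 kb before the start (8.02-fold, 522 tags). The pores of the ATP-sensitive channel, KCNJ8 and KCNJ11, stood at 7.37-fold (459 tags) and 5.05-fold (439 tags). KCNJ4 (4.10-fold, 263 tags) was accessible only away from its listed start, which lies inside the gene. Its strongest summit lay 907 bp before the outer end on the start side, and the nearest summit 748 bp from that end.

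KCNJ12 was weak at 2.68-fold (197 tags), and KCNJ18, whose sequence is nearly identical, was 28508 bp from a summit. How reads that match both copies were placed is not given in the sources used here, so the values of this pair are uncertain. The epithelial members KCNJ1 (kidney), KCNJ13 (retinal pigment epithelium), KCNJ15 and KCNJ16 were not accessible at an end, nor was KCNJ14. KCNJ13 lay 67.8 kb from the nearest summit, the largest distance of all members.

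Tandem-pore channels. These leak channels had the lowest median fold of the classes, 4.69, and when only summits above the list's median fold were counted, 4 of 15 remained (26.7%). KCNK3, an acid-sensitive channel, was strongest at 8.39-fold (714 tags). KCNK1 stood at 6.60 (345 tags), KCNK12 at 6.29 (478 tags) and KCNK5 at 5.80 (302 tags). KCNK7, KCNK13, KCNK15 and KCNK4 ranged from 3.58-fold down to 2.75-fold, with 159 to 227 tags, and all 4 had another gene or transcript at the accessible end. Outside the limit, a stronger summit lay 1.44 kb before the KCNK13 start (8.56-fold, 584 tags). No end was accessible at KCNK2, KCNK6, KCNK9, KCNK10, KCNK16, KCNK17 and KCNK18. KCNK9, the relative of KCNK3, was 2591 bp from a summit and had no interval inside its 102 kb.

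Auxiliary subunits. None of the 5 KCNE genes, whose small membrane proteins slow or shift KCNQ and KCNH channels, had an accessible end, although a count of 0 of 5 leaves room for a larger share (Wilson upper bound 43.4%, and 60.0% if 3 counts are allowed for a count of 0). The nearest summits were 1700 bp from KCNE2, 2974 bp from KCNE1, 4317 bp from KCNE5, 4906 bp from KCNE3 and 30916 bp from KCNE4. Of the cytoplasmic beta subunits of Kv1 channels, KCNAB2 stood at 12.1-fold (1856 tags) at an end shared with NPHP4, and KCNAB1 and KCNAB3 were not accessible. KCNAB3 was the member nearest to the limit from outside, at 1129 bp. Of the Kv4 partners, KCNIP4 stood at 7.73-fold (470 tags) and KCNIP3 at 3.23 (302 tags). KCNIP1 and KCNIP2 were accessible inside the gene. Of the beta subunits of the KCNMA1 channel, KCNMB4, the neuronal form, stood at 8.14-fold (888 tags) and KCNMB2 at 5.25 (246 tags), while KCNMB1 (smooth muscle) and KCNMB3 were not accessible. KCNMB1 lies within the span of KCNIP1. KCNRG, a soluble regulator of Kv1 channels, was 17965 bp from a summit.

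Among members near the limit from inside was KCNJ3 (956 bp), and KCNJ11 and KCND3 each had a summit at 941 and 944 bp from an end beside a nearer one at the other end.

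The accessible KCN ends were weaker than those of genes at large. Their median fold was 6.27 (quartiles 4.54 to 8.03, range 2.61 to 12.7), against 10.4 (6.83 to 13.3) over all accessible genes, and their median tag count was 475, against 931. Below the median fold of all genes were 51 of the 58, where 50% is the share of all genes by construction. The 7 above it included KCNT2, KCNAB2, KCNJ2, KCNH1, KCNN3 and KCNJ10. The quartile ranges of fold overlap. A single end of 475 tags has a counting error of 4.59%. Tags are amplified reads without molecular identifiers, so this covers counting error only.

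**Figure D3:**
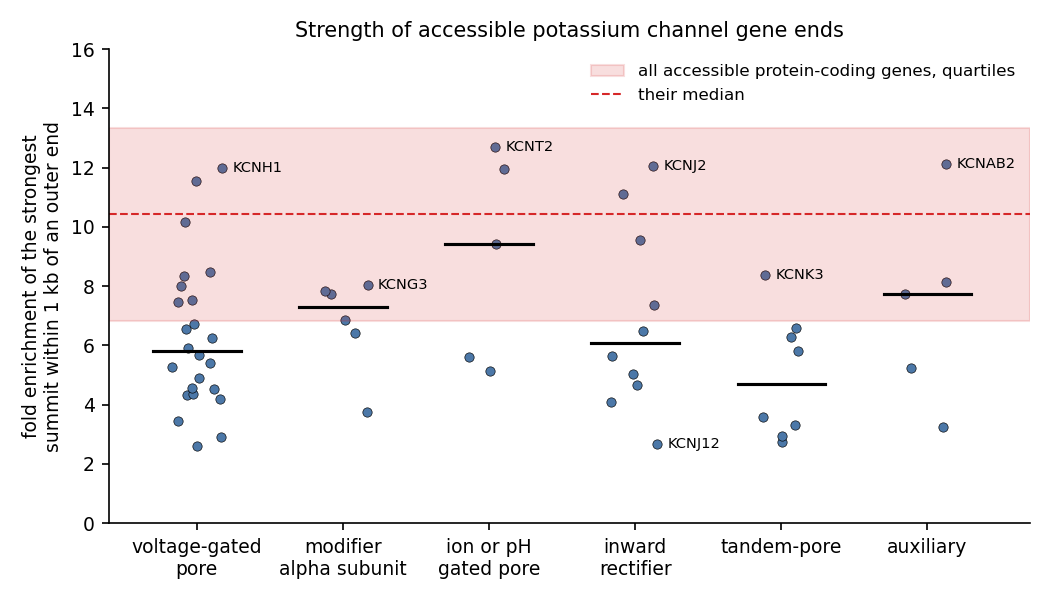
Authors' fold enrichment of the strongest summit within 1 kb of an outer end for the 58 accessible KCN genes, each point a gene, with the class median as a bar. The dashed line and band are the median (10.4) and quartiles of all accessible protein-coding genes; 7 KCN genes lie above the line.

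The strength was also compared within classes of length, CG content and neighbours. Over the 5 classes of gene length the KCN medians were 6.43, 4.65, 5.93, 6.26 and 6.63, from shortest to longest, against 9.38, 11.1, 11.3, 9.53 and 8.40 of all genes. Among starts with 30 or more CG, the median was 7.03-fold for KCN and 10.3 for all genes, and with 20 to 29 CG it was 6.43 and 12.1. The exception was the class of 0 to 4 CG, where the 2 KCN starts had a median of 6.89 against 5.93. Among genes with no other gene end within 1 kb, the medians were 6.58 and 9.43. The intervals at KCN ends were as wide as elsewhere, with a median of 1366 bp against 1318 bp, and held a median of 3 summits in both sets.

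Gene length divided the family further. Of KCN genes of 10 to 30 kb, 7 of 25 were accessible (28.0%), against 69.4% of all genes of that length. Of those under 10 kb it was 11 of 20 (55.0%, all genes 51.7%), and of 30 to 100 kb 17 of 21 (81.0%, all genes 77.6%). Of 100 to 300 kb it was 9 of 13 (69.2%, all genes 81.4%), and of 300 kb or more 14 of 17 (82.4%, all genes 85%). The class of 10 to 30 kb holds 18 of the 38 inaccessible members, among them KCNV1, KCNV2, KCNJ13, KCNJ14, KCNK6 and KCNMB1. From the shortest class to the longest, voltage-gated pores were accessible in 3 of 5, 3 of 6, 7 of 7, 3 of 3 and 8 of 9. All other KCN genes were accessible in 8 of 15, 4 of 19, 10 of 14, 6 of 10 and 6 of 8.

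For 67 members the promoter table lists a start at an outer end, and that end was accessible in 37, against 71.1% of all such genes. The far end was accessible in 5 of 67 (KCNA2, KCNA3, KCNA5, KCND3 and KCNK7), against 9.43%. The strongest summit lay a median of 57 bp before the start, against 48 bp for all genes, and within 200 bp of it in 22 of the 37 (59.5%), against 73.6%. Farthest upstream were KCNJ3 (956 bp), KCNH2 (883 bp), KCNJ5 (703 bp) and KCNMA1 (677 bp).

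Starts inside the gene added 6 members to those with an accessible end, for 64 of 96 in all, against 72.1% of all genes by the same rule. Of 22 members with a listed internal start, 13 had a summit within 1 kb of one, against 59.6% of all such genes. KCNAB1 was accessible 173 kb into the gene (9.21-fold, 695 tags) and KCNK2, a mechanically gated leak channel, 77.2 kb into it (6.42-fold, 449 tags). KCNIP2 was accessible near a start 3.93 kb in (8.65-fold, 831 tags), KCNIP1 151 kb in (5.38-fold, 306 tags), KCNN1 15.8 kb in (4.09-fold, 160 tags) and KCNJ16 29.6 kb in (3.24-fold, 97 tags). With KCNAB1 and KCNK2 counted, KCNK9 is the only member of the neuronal list with neither an accessible end nor an accessible listed start, although the table lists no start for it. By the same rule KCNJ16 joins KCNA5 as accessible on the list drawn up as channels known mainly from other tissues. KCNN2, accessible at both, had more tags at a start 306 kb into the gene than at its outer end (1210 against 717) but a lower fold (7.37 against 9.44).

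Inside the 96 genes lay the strongest summits of 274 intervals. A median KCN gene held 1.75 intervals per 100 kb, against 0.767 for all genes, and 29 of 96 held none, against 48.8%. The densities were close once short genes were set aside. Summed over all gene lengths the density was 2.32 against 2.37 per 100 kb, and among genes of at least 10 kb the medians were 1.79 and 1.81. The longest member, KCNIP4 at chr4:20728606-21948772 (1220 kb), held 19 intervals, KCNMA1 (768 kb) 17, KCNQ5 (577 kb) 8, KCNH7 (467 kb) 6 and KCND2 (477 kb) 4. KCNIP1 held 18 in 383 kb, KCNQ3 15 in 360 kb and KCNAB1 13 in 421 kb, while KCNT2, with the strongest end, held 3 in 383 kb. Among the densest members of at least 10 kb were KCNIP2 (22.4 per 100 kb), KCNA2 (13.2), KCNK17 (13.0) and KCNJ10 (9.18).

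**Figure D4:**
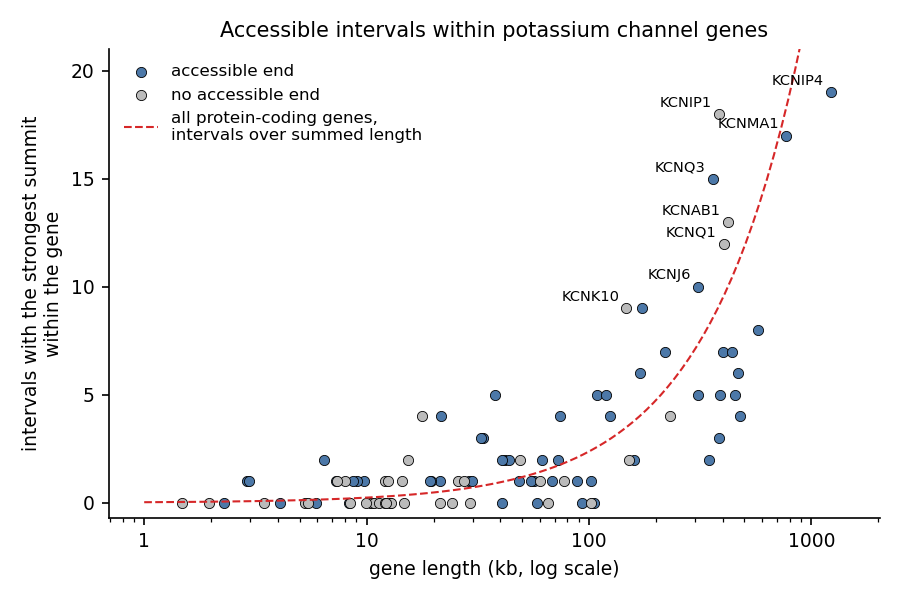
Number of accessible intervals with the strongest summit inside each of the 96 KCN genes against gene length in kb (log scale), blue for genes with an accessible end and grey for those without. The dashed line is the density of all protein-coding genes, 2.37 per 100 kb; KCNIP1 (18 intervals) and KCNQ3 (15) lie above it and KCND2 (4) below.

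Distal intervals, those more than 1 kb from any gene end, were counted within 50 kb of the outer ends. The median was 3 per KCN gene and 2 per gene overall. With 5 or more were 33 of 96 KCN genes (34.4%), against 15.9% of all genes, and with none were 7 (KCNA1, KCNF1, KCNJ8, KCNJ13, KCNK4, KCNMB2 and KCNT2), against 16.8%. Counting only intervals outside the gene, the median was 2 in both sets. KCNQ1 at chr11:2445008-2849105 had the most, 11, though no accessible end. KCNK10, a leak channel also without one, had 10, and KCNA2, KCNAB1 and KCNC4 had 9 each. The 328 distinct distal intervals were close to all distal intervals in strength, with a median of 4.77-fold and 229 tags against 5.11-fold and 201 tags.

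**Figure D5:**
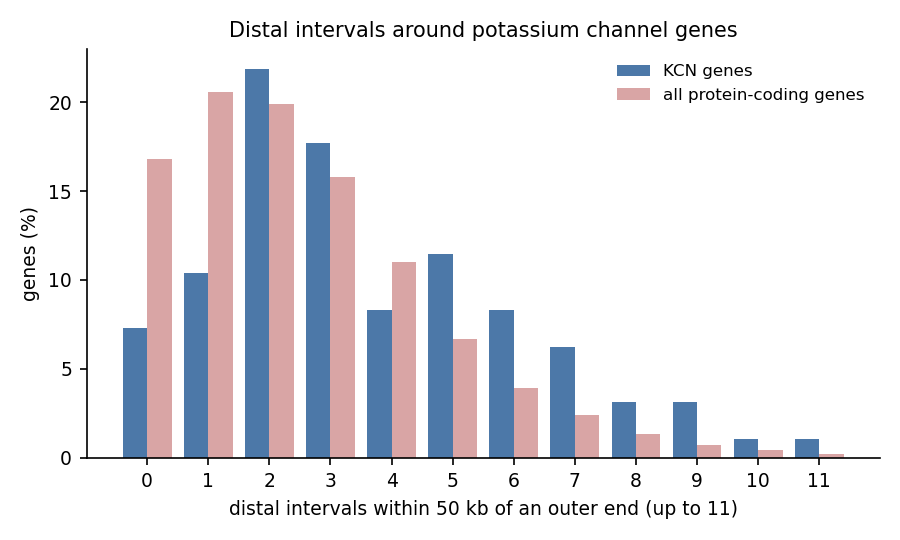
Share of genes (percent) by number of distal intervals within 50 kb, for the 96 KCN genes and all protein-coding genes. KCN genes have the larger share at 5 or more (34.4% against 15.9%) and the smaller at 0.

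Within 50 kb of an outer end, distal intervals near 4 members had a higher fold than any KCN end, and so did another deeper inside KCNJ6 (12.9-fold, 715 tags), 98.1 kb from its start. The strongest, at chr4:20699923-20700990, lay 28.2 kb beyond the far end of KCNIP4 and reached 17.1-fold with 1790 tags. Another at chr2:162343667-162344703 lay 27.4 kb from KCNH7 (16.4-fold, 1630 tags), and one inside KCNN2 at chr5:114449397-114450516 reached 12.9-fold (668 tags). Near KCNG3 an interval 26.8 kb away reached 12.8-fold (1548 tags). KCNMA1 had one 26.0 kb before its start (11.3-fold, 667 tags), stronger than its own end. Distance to a gene does not show which gene an interval acts on.

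Some members lie side by side and so count the same distal intervals. KCNJ10 and KCNJ9, 11.4 kb apart, shared 7 intervals, which is all 7 of KCNJ9 and 7 of 8 of KCNJ10. KCNK16 and KCNK17, 0.15 kb apart, shared 5, which is all 5 of KCNK17 and 5 of 6 of KCNK16, and neither gene was accessible at an end. KCNA2 and KCNA3 shared 5 of 9 and of 7, and KCNA10 shared 3 of its 6 with KCNA2. KCNJ1 and KCNJ5 shared 3 of 7 and of 5, and KCNJ16 and KCNJ2 shared 1. Of the 11 pairs of neighbours within 200 kb, both genes were accessible in 4, a single gene in 4 and neither in 3. In the split pairs, KCNA2, KCNJ5, KCNJ2 and KCNK5 were accessible beside KCNA10, KCNJ1, KCNJ16 and KCNK17, which were not.

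Partner proteins without a KCN symbol were mostly accessible. Of 25 such genes, including DPP10 (a Kv4 partner), ABCC8 and ABCC9 (the regulatory subunits of the ATP-sensitive channel), ANK3 (the anchor of the axon initial segment) and the calmodulin genes, 22 had an accessible end, beside 68.8% of all genes. The exceptions were DPP6, LRRC38 and HCN2, of which DPP6 had a summit at a start inside the gene. Their median fold of 8.01 lay between that of KCN genes and that of all genes.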

How the data were processed

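ATAC-seq of 3 biological replicates was combined by the authors into 1 list of intervals, and the depth of each replicate is unknown. The authors deposited for each summit a fold enrichment (a linear ratio), −log10 p and −log10 q, and a score whose scaling is not given. The build is hg38, per the submitters' processing notes; the list's name in the labels marks it as an IDR optimal set (irreproducible discovery rate, a filter on replicate ranking), and the aligner, peak caller and other filters are not given in the sources used here. Gene ends and promoters came from RefSeq tables of GRCh38.p14.

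Tag counts were recovered from the fold and p under a Poisson model with a pseudocount of 1, with a largest misfit of 0.00079 in −log10 p; entries with the same bounds were merged. Scripts (Python 3.11.15, pandas 2.3.3, scipy 1.17.1) were tested on simulated data: 100.0% of 20000 drawn tag counts were recovered. Shares carry Wilson intervals (95%).

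The 96 genes were set by symbol alone. The gene lists and the rules below, including which members to name, were chosen with earlier results of these data known. Every member without an accessible end is named, and full values go to the 10 strongest ends, the 5 members with the most distal intervals, the 5 densest of at least 10 kb, the 5 longest, those sharing distal intervals, and lists known from neurons or other tissues. The values of other members were added, and some members counted in the totals are not reported by name here. The alternatives tried were other windows, score and fold limits, listed starts, and other ways of counting intervals. With 1 group and no value per sample, no test was run.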

Additional observations from a re-analysis of the deposited data

How the results depend on the processing

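Of 60 alternatives over 10 results, 47 kept the side of the all-gene value and were scored as the same. Another 5 moved the value and 8 turned the order of KCN and all genes, where "turned" includes ties. A share in a small class could change widely and still be scored as the same. At listed starts the auxiliary share went from 31.2% to 53.8%, and the voltage-gated share came close to that of all genes. The accessible share of KCN genes became 50.0% (all genes 64.0%) with summits above the median fold only, 46.9% (41.4%) without ends near another gene, and 61.8% (58.5%) among genes with no such neighbour, the last chosen after seeing the data. The share became 85.7% (72.4%) for ion or pH gated pores at listed starts, 80.0% (72.4%) for modifier subunits within 2 kb, and 26.7% (64.0%) for tandem-pore channels above the median fold. Voltage-gated pores kept the higher share against all other KCN genes in the 6 alternatives run, from 70.0% to 90.0% against 40.9% to 57.7%. The 90.0% belongs to the window of 2 kb, which adds KCNQ1, KCNH4 and KCNH6. For KCNH4 and KCNH6 the added summits lie at their far ends. For KCNQ1 it lies at the end of higher coordinate, and no start is listed to tell which end that is. Intervals per 100 kb became 3.16 (3.49) with any overlap, 7.31 (5.24) with all entries, 1.79 (1.81) in genes of at least 10 kb and 2.32 (2.37) when summed. Distal intervals became 5 (4) within 100 kb and 2 (2) outside the gene. As tags, the strength at the end was 475 (931).

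No paired analysis was possible because the list holds no value per sample, and no replicate could be left out for the same reason. The planned count of pore signatures in the proteins was not run, as no protein table was used here. The list holds no summit under 58 tags, whether through depth or a threshold was not tested, so an end without a summit is not shown to be closed. Outer ends miss starts inside genes, and 24 members have no listed start in the table.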
